A study of Homo sapiens with 6 samples.

Results

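The mitochondrial ribosomal proteins were taken as every row of the deposited expression table whose gene symbol begins with MRPL or MRPS followed by a digit, which gave 78 genes of 24580 rows. MRPL symbols (49 genes) are named for the large subunit of the mitochondrial ribosome and MRPS symbols (29 genes) for the small subunit. Messenger RNA was compared between LoVo, an established human colorectal cancer cell line labelled wild type, and LoVo-HM, which the labels call a highly metastatic subline of LoVo. Each group had 3 libraries and no treatment is recorded for either. The origin of the subline, whether it is 1 clone, and whether the 3 libraries of a group came from separate cultures are not in the labels, so p-values measure only the spread between these libraries.

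Mitochondria carry their own ribosome, which translates the few respiratory chain subunits encoded in mitochondrial DNA. Its RNAs come from the mitochondrial genome, whereas all of its proteins are encoded in the nucleus, made in the cytosol and imported. About as many of its proteins are peculiar to mitochondria as are inherited from the bacterial ancestor, and the ribosome is anchored at the inner membrane so that hydrophobic products can be inserted as they are made. The small subunit reads the messenger RNA, and the large subunit joins the amino acids and holds the exit tunnel. Nuclear genes for mitochondrial proteins are commonly controlled through binding sites for NRF1, ETS-family factors such as GABP, and YY1, often close to the transcription start.

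Promoter stretches of 6 members are shown. MRPS35 and MRPS6 had the largest fall and rise among the members. The other 4 had the largest fall and rise with a YY1 match (MRPS30 and MRPL9) or an ETS match (MRPS31 and MRPL33) in the stretch, among members whose RefSeq and GENCODE 29 starts lie within 100 bases of each other. MRPS26 and MRPL48 changed more and hold an ETS match, but their starts differ by more than that and they are not shown. The starts of MRPS6 differ by 354 bases. Each runs 5′ to 3′ on the gene's strand from 100 bases before to 25 bases after the RefSeq start, in build GRCh38.p14. Capitals mark a match to AANATGGCG (YY1) in MRPS30 and MRPL9 and to CCGGAAG (ETS) in MRPS31 and MRPL33. The stretches are at chr12:27710732-27710856 (plus strand) for MRPS35, chr21:34073478-34073602 (plus strand) for MRPS6, chr5:44808847-44808971 (plus strand) for MRPS30, chr1:151763472-151763596 (minus strand) for MRPL9, chr13:40771166-40771290 (minus strand) for MRPS31 and chr2:27771619-27771743 (plus strand) for MRPL33.
MRPS35: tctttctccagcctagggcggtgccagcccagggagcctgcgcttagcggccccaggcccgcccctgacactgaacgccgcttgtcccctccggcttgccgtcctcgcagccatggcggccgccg
MRPS6: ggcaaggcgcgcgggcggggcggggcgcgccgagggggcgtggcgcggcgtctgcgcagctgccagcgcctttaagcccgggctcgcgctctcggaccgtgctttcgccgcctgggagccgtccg
MRPS30: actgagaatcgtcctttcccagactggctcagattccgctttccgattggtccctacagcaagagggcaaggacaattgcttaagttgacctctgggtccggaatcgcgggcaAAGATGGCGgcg
MRPL9: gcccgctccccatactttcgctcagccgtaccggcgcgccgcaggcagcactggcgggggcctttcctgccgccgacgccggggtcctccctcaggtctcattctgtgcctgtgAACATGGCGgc
MRPS31: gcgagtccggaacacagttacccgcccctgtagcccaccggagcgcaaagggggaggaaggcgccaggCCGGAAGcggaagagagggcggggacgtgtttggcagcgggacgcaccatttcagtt
MRPL33: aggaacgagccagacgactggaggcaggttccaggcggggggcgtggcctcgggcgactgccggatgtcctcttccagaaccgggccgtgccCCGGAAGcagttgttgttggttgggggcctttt

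A RefSeq promoter window of 300 bases (250 before to 50 after the start) was matched for 69 of the 78 members, and 4 motifs were searched in it on both strands. The YY1 letters AANATGGCG were found in 18 members (26.1%), against 8.19% of 9930 tested genes with a window and 3.19% of all 35116 windows. Of the 20 YY1 matches 16 lay after the start, and in 14 the ATG within the match was an annotated start codon. The ETS letters CCGGAAG were found in 30 members (43.5%), against 22.5% of tested genes and 10.3% of all windows, and 39 of the 45 matches lay before the start. Both motifs were held by 4 members. The NRF1 letters (GCGC, any base, TGCGC) and the E-box CACGTG, which MYC and related factors bind, were each found in 9 members (13.0%), close to the 13.2% and 12.8% of tested genes. Each motif except NRF1 was found in members that rose as well as in members that did not. YY1 letters stood in 1 member that rose, 4 that fell and 13 that did neither by the test given below, and ETS letters in 3, 4 and 23. Of the 9 members with NRF1 letters 5 fell (MRPL30, MRPS9, MRPL17, MRPL57 and MRPL34), 0 rose and 4 did neither. The windows of members held 8 that rose, 15 that fell and 46 others. A match is a string of letters, and binding was not measured.

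The deposited unit is FPKM, in which the fragments of a gene are divided by its length and by the size of the library, so that levels of different genes can be set beside each other. Rows with a mean of at least 0.5 FPKM were tested, 14487 in all, and every one of the 78 members was among them. Differences are LoVo-HM minus LoVo on the log2(FPKM + 1) scale with their SE, and a gene is said to have risen or fallen where limma's Benjamini-Hochberg adjusted p over all tested rows was under 0.05. The FPKM of a LoVo library summed to 434108 to 439082 and that of a LoVo-HM library to 424624 to 428265, of which mitochondrially encoded genes took 20.9 to 21.8% and 17.5 to 18.6%. The read depth is unknown. Libraries correlated at 0.991 to 0.993 within and 0.936 to 0.938 between groups (Pearson's r). The summed level of 7 epithelial markers was 2016 to 2071 FPKM in LoVo libraries and 2613 to 2718 in those of LoVo-HM, with VIL1 at 0 in every library. Of the 6 tested, KRT8, KRT18, KRT19 and CDX2 rose, whereas CDH1 fell from 48.0 to 7.91 FPKM (log2 difference -2.46) and EPCAM from 128 to 51.7 FPKM (-1.29), so the sum follows the keratins. By contrast, the sums for fibroblast, immune and endothelial markers did not exceed 6.35 FPKM. Fewer cells of a type and less RNA per cell cannot be told apart in such bulk samples.

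Mitochondrial ribosomal protein mRNAs were abundant and differed little between the lines. Their mean levels ran from 7.41 to 113 FPKM, a 15.2-fold range, with a median of 32.0 FPKM against 8.54 FPKM for all tested rows. The order of the members was much the same in both lines (Spearman's rho 0.970 over 78 genes, a description across genes). Of the 78 members 24 passed the test (30.8%), against 44.9% of all tested rows. There were 8 that rose (10.3%, background 21.8%) and 16 that fell (20.5%, background 23.1%). The other 54 passed in neither direction. The groups of libraries did not overlap for 29 members (37.2%), against 55.0% of all tested rows. With libraries rescaled to the same total, 11 members rose and 14 fell.

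Sizes were small. The median absolute log2 difference was 0.12 over the members and 0.21 over all tested rows. No member reached a 2-fold difference, and only MRPS35 and MRPS6 exceeded 0.5 log2 units, whereas 6.59% and 19.1% of all tested rows did so. Signed differences leaned to the negative side, with 53 members below and 25 above 0 and a median of -0.08, beside 0.003 for all tested rows. The members' median was -0.04 without LoVo-HM replicate 3, and -0.04 with 48 members below 0 when libraries were rescaled to the same total. It was -0.05 without LoVo replicate 1 and -0.06 with quantile normalization. It lay further from 0, at -0.09, without LoVo replicate 3 or without LoVo-HM replicate 1. With mitochondrially encoded rows left out it was -0.10, with 57 members below 0. Among the 54 members that did not pass, the 95% interval of the difference lay within 0.5 log2 units of 0 for 53 and within 0.25 for 26. The narrowest such interval was that of MRPL37 (-0.12 to 0.06) and the widest that of MRPL22 (-0.39 to 0.30).

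**Figure D1:**
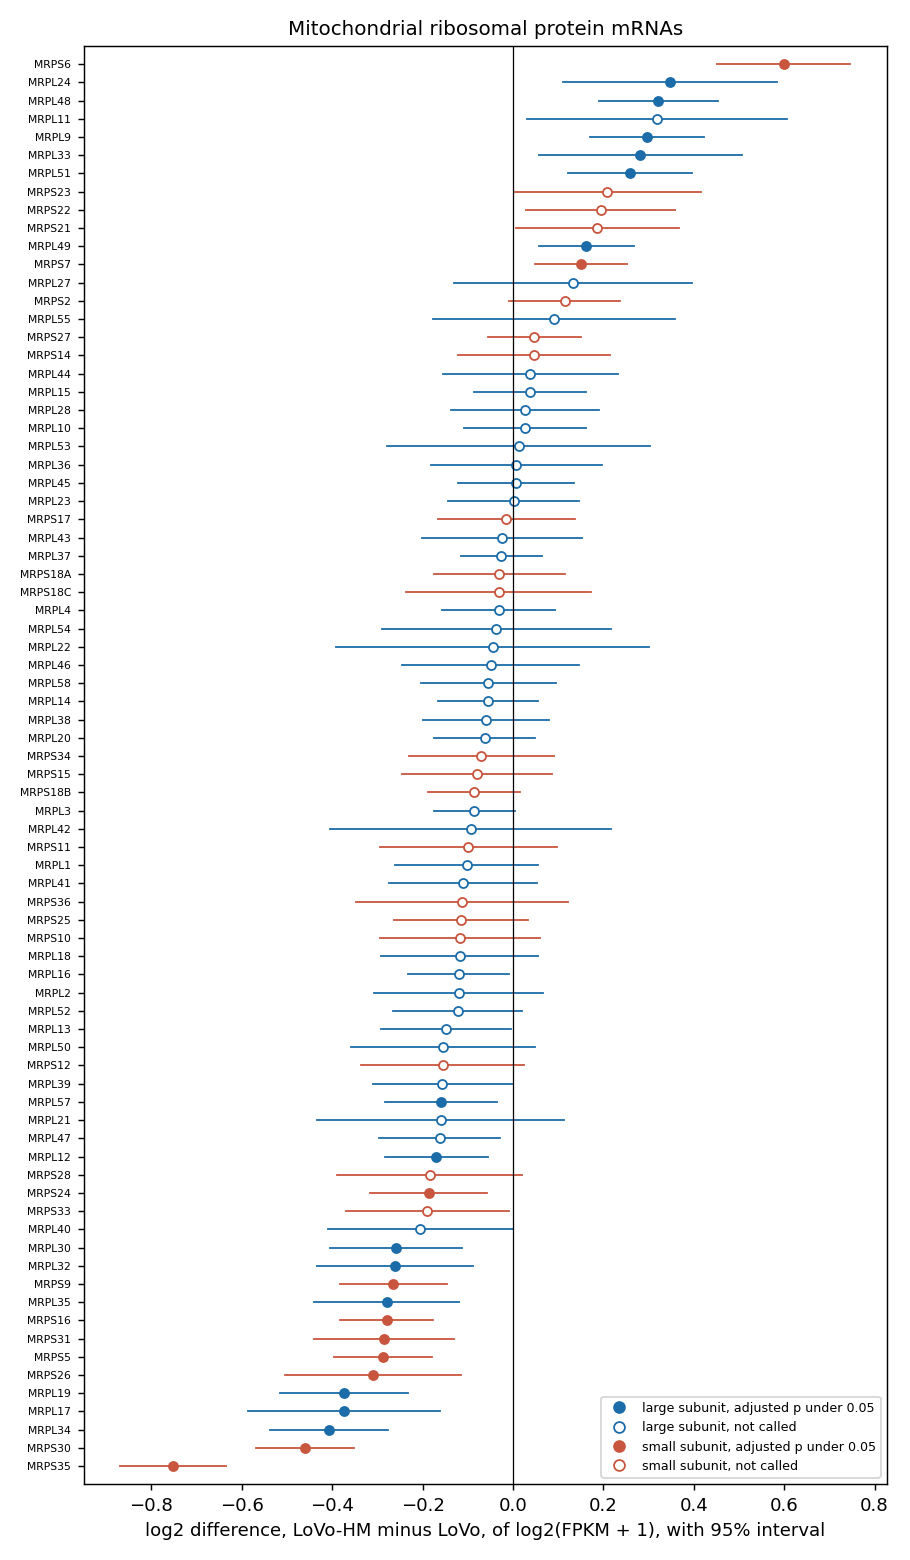
Log2 difference of each of the 78 members, LoVo-HM minus LoVo on the log2(FPKM + 1) scale (x axis), with 95% intervals from limma and n = 3 libraries per group. Filled points passed an adjusted p of 0.05. Most points lie within 0.5 log2 units of 0, and MRPS35 (-0.75) and MRPS6 (0.60) stand at the ends.

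**Figure D2:**
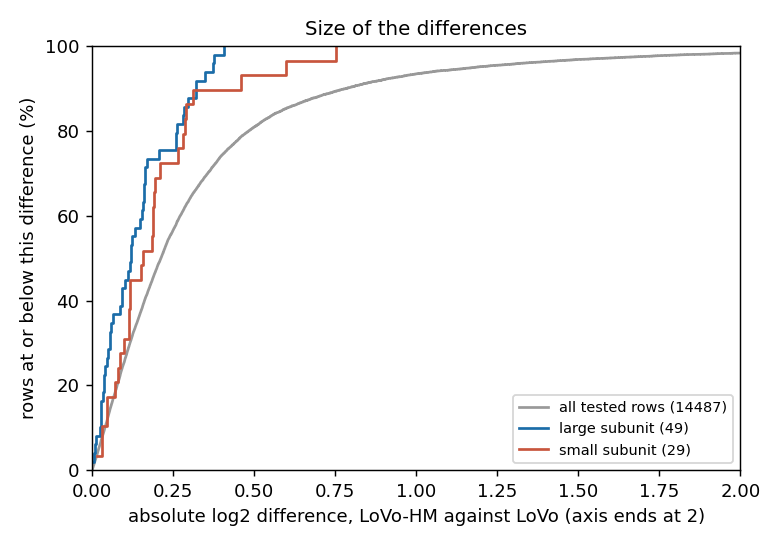
Share of rows (y axis, %) at or below a given absolute log2 difference (x axis, LoVo-HM against LoVo, drawn to 2) for the 49 large-subunit and 29 small-subunit members and all 14487 tested rows. The curves of both subunits lie above that of all rows over most of the axis, since the members' differences were smaller.

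Small-subunit members held both ends of the range. Of 29 members 2 rose, 8 fell and 19 did neither, with a median log2 difference of -0.10. MRPS35, a mitochondrion-specific protein of the head of the small subunit (ENSG00000061794, chromosome 12, 27710773 to 27756295, plus strand, GENCODE 29 on GRCh38), stood at 128, 129 and 129 FPKM in the LoVo libraries and 76.8, 70.9 and 80.4 FPKM in the LoVo-HM libraries. It was the most abundant member in LoVo and all 3 LoVo-HM libraries lay far below all 3 LoVo libraries. Its mean fell from 129 ± 0.814 to 76.0 ± 4.80 FPKM (SD, n = 3), a change of -40.9% (log2 difference -0.75 ± 0.051, limma adjusted p = 6.12e-06).

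The 13 tested genes within 1 Mb of MRPS35 showed no common direction. Their median log2 difference was 0.09, with 5 higher and 5 lower.

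MRPS6, the counterpart of a bacterial protein of the small-subunit platform (ENSG00000243927, chromosome 21, 34073224 to 34143034, plus strand), stood at 36.8, 31.1 and 34.7 FPKM in LoVo and 53.1, 50.7 and 52.8 FPKM in LoVo-HM. The groups were well apart. The mean rose from 34.2 ± 2.88 to 52.2 ± 1.31 FPKM, or by 52.6% (0.60 ± 0.065, limma adjusted p = 0.000109). Exons of MRPS6 overlap those of SLC5A3, a myo-inositol transporter gene on the same strand, which rose from 17.0 to 38.7 FPKM (log2 difference 1.14). Reads in the shared exons cannot be assigned to one or the other from FPKM values, so the value of MRPS6 is uncertain.

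MRPS30 carries a small-subunit symbol, but its protein lies in the large subunit in structures of the mammalian mitochondrial ribosome (ENSG00000112996, chromosome 5, 44808925 to 44820428, plus strand). Its levels were 68.6, 71.9 and 65.9 FPKM in LoVo and 48.8, 50.8 and 49.5 FPKM in LoVo-HM, with a wide gap between the groups. The mean fell from 68.8 ± 2.99 to 49.7 ± 1.01 FPKM, a log2 difference of -0.46 ± 0.047 (limma adjusted p = 8.25e-05).

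The remaining small-subunit members that passed moved less. Among counterparts of bacterial proteins, MRPS5, which lies near the mRNA entry, fell from 46.2 ± 1.89 to 37.6 ± 0.276 FPKM (-0.29 ± 0.048, limma adjusted p = 0.00131), and its LoVo-HM libraries agreed closely at 37.6, 37.9 and 37.3 FPKM. MRPS16, a protein of the body of the subunit, fell from 51.0 ± 1.09 to 41.8 ± 1.18 FPKM (-0.28 ± 0.045, limma adjusted p = 0.00116). Its exons overlap DNAJC9 on the same strand, which rose (0.54). MRPS7, a protein of the head that contacts tRNA and mRNA, rose from 45.4 ± 0.992 to 50.5 ± 1.20 FPKM (0.15 ± 0.044, limma adjusted p = 0.0227). The mitochondrion-specific MRPS26 and MRPS31 fell. MRPS26 went from 48.1 ± 0.817 to 38.8 ± 5.01 FPKM (-0.31 ± 0.086, limma adjusted p = 0.0177), with LoVo-HM libraries spread over 40.5, 42.8 and 33.2 FPKM. Without LoVo-HM replicate 3 its log2 difference was -0.20. MRPS31 went from 19.6 ± 0.503 to 16.0 ± 1.31 FPKM (-0.29 ± 0.068, limma adjusted p = 0.00892). MRPS9 (-0.27) and MRPS24 (-0.19) also fell and are named after their values were seen.

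Large-subunit members changed in both directions. Of 49 members 6 rose, 8 fell and 35 did neither, with a median log2 difference of -0.06. MRPL34, the counterpart of a small bacterial large-subunit protein, had the largest fall among MRPL symbols, from 53.4, 50.6 and 51.0 FPKM in LoVo to 41.5, 38.2 and 36.5 FPKM in LoVo-HM, a difference of -0.41 ± 0.057 (limma adjusted p = 0.000523). MRPL19 fell from 24.3, 23.7 and 24.6 to 18.5, 17.1 and 19.8 FPKM (-0.37 ± 0.062, limma adjusted p = 0.00136). In both genes every LoVo-HM library lay below every LoVo library.

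MRPL17, which lies by the exit tunnel, was at 28.2, 22.9 and 22.6 FPKM in LoVo and 20.4, 17.7 and 18.0 FPKM in LoVo-HM, a difference of -0.37 ± 0.093 (limma adjusted p = 0.0108). LoVo replicate 1 was the highest library and the groups did not overlap. MRPL35 fell from 18.8 ± 1.43 to 15.3 ± 0.839 FPKM (-0.28 ± 0.070, limma adjusted p = 0.0115). Named after their values were seen, MRPL32 (-0.26), MRPL30 (-0.26) and MRPL57 (-0.16) also fell. MRPL32 is matured by the m-AAA protease of the inner membrane.

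Rises among large-subunit members reached 0.35 log2 units. MRPL24, the counterpart of a bacterial protein at the exit tunnel, was at 22.5, 17.3 and 17.0 FPKM in LoVo and 22.7, 25.4 and 24.4 FPKM in LoVo-HM, a difference of 0.35 ± 0.103 (limma adjusted p = 0.0241). LoVo replicate 1 almost reached the lowest LoVo-HM library. MRPL48, a mitochondrion-specific protein of the central protuberance, rose from 12.9, 11.8 and 12.6 to 15.6, 15.9 and 15.8 FPKM (0.32 ± 0.058, limma adjusted p = 0.00216). The groups of MRPL48 were clearly separate.

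MRPL9, whose bacterial counterpart reaches out from the base of the L1 stalk, rose from 36.1, 36.7 and 39.6 to 48.6, 44.9 and 45.3 FPKM (0.30 ± 0.055, limma adjusted p = 0.00254). MRPL33 passed the test at 26.8, 21.1 and 20.7 FPKM in LoVo and 29.8, 26.2 and 27.8 FPKM in LoVo-HM, a difference of 0.28 ± 0.098 (limma adjusted p = 0.0446). Its groups overlapped, because LoVo replicate 1 was above LoVo-HM replicate 2. MRPL51, a mitochondrion-specific member, rose from 75.0 ± 6.37 to 89.7 ± 0.779 FPKM, a difference of 0.26 ± 0.060 (limma adjusted p = 0.00796). MRPL49, another, stood at 29.3 ± 0.708 FPKM in LoVo and was higher in LoVo-HM at 33.0 ± 0.353 FPKM, a difference of 0.16 ± 0.046 (limma adjusted p = 0.0197). MRPL11, a stalk-base protein, had a difference of the same size as MRPL48 (0.32 ± 0.126) but did not pass (limma adjusted p = 0.0690). With 1 library left out the difference of MRPL11 ran from 0.19 to 0.43 and that of MRPL48 from 0.28 to 0.35. Its libraries were widely spread, at 48.1, 42.2 and 34.0 FPKM in LoVo and 59.1, 49.0 and 47.1 FPKM in LoVo-HM.

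**Figure D3:**
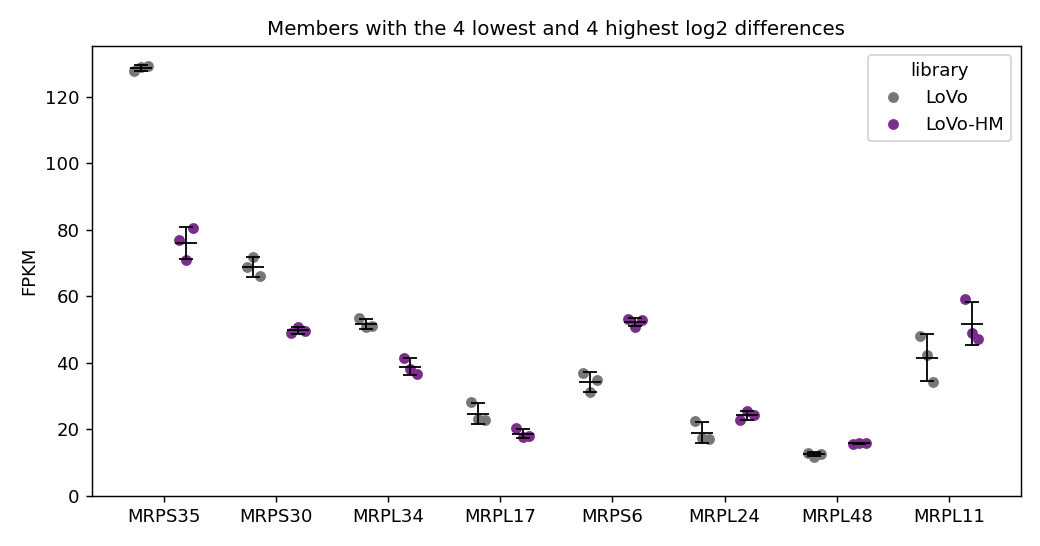
FPKM in each library (points) with group means ± SD (bars, n = 3) for the 4 members with the lowest log2 differences (MRPS35, MRPS30, MRPL34 and MRPL17) and the 4 with the highest (MRPS6, MRPL24, MRPL48 and MRPL11). The y axis starts at 0. The groups do not overlap except for MRPL11, which did not pass the test. For MRPL24 they nearly touch, at 22.5 FPKM in LoVo replicate 1 and 22.7 FPKM in LoVo-HM replicate 1.

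Some of the smaller calls depended on single libraries or on the processing. Of the 24 members that passed, 15 also passed in each of 6 fits that left out 1 library. MRPL33 and MRPL57 passed only in 1 of these fits, MRPL33 without LoVo replicate 1 and MRPL57 without LoVo replicate 3, and elsewhere their limma adjusted p reached 0.139 and 0.133. MRPL24 lost its call without LoVo replicate 2, LoVo replicate 3, LoVo-HM replicate 2 or LoVo-HM replicate 3 (limma adjusted p up to 0.0837). MRPL32 lost it without LoVo replicate 1, LoVo replicate 2, LoVo-HM replicate 2 or LoVo-HM replicate 3 (up to 0.0789), and MRPS24 without LoVo replicate 1, LoVo replicate 2, LoVo-HM replicate 1 or LoVo-HM replicate 3 (up to 0.0962). MRPS7 lost it without LoVo replicate 2, LoVo replicate 3, LoVo-HM replicate 1 or LoVo-HM replicate 2 (up to 0.0849), MRPL49 without LoVo replicate 2, LoVo replicate 3 or LoVo-HM replicate 1 (up to 0.0653), MRPL12 without LoVo replicate 1, LoVo-HM replicate 1 or LoVo-HM replicate 3 (up to 0.0795), and MRPS26 without LoVo replicate 1 (0.0506). MRPL11 passed without LoVo replicate 1 (0.0238) and MRPS12 without LoVo-HM replicate 2 (0.0347). The count of members that rose, 8, was 4 without LoVo replicate 2 and 5 without LoVo replicate 3, LoVo-HM replicate 1 or LoVo-HM replicate 2. Large-subunit calls numbered 9 without LoVo replicate 2, and their falls 5 without LoVo replicate 1. Large-subunit rises numbered 3 without LoVo replicate 2 or LoVo replicate 3. Small-subunit rises numbered 1 without LoVo replicate 2, LoVo-HM replicate 1 or LoVo-HM replicate 2 and 4 without LoVo-HM replicate 3.

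With no filter on low values MRPL24 and MRPL33 lost their calls (limma adjusted p = 0.0615 and 0.0962), and without mitochondrially encoded rows MRPL33 did (0.0507). Without a variance trend MRPL33, MRPS7, MRPL12, MRPS24 and MRPL57 lost theirs (0.0619 to 0.0734). Rescaling to the same total ended the calls of MRPS24 (0.0551) and MRPL57 (0.0800), and quantile normalization that of MRPL57 (0.0529). Of the 24 members 18 passed under all 11 alternatives that kept every library.

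Ancestry and place in the ribosome gave groups with few calls, to be read against 21.8% of all tested rows higher and 23.1% lower. Among 30 large-subunit members with a bacterial counterpart 3 rose (10%) and 7 fell (23.3%), and among 19 found only in mitochondrial ribosomes 3 rose (15.8%) and 1 fell (5.26%). In the small subunit 2 of 16 members with a bacterial counterpart rose (12.5%) and 4 fell (25%), and 0 of 10 mitochondrion-specific members rose and 3 fell (30%). MRPS30, which fell, and MRPS18A and MRPS36, which did not pass, are in none of these groups. Differences between these groups were not tested. Of 9 members placed at the exit tunnel MRPL24 rose and MRPL17 fell, and of 9 placed at the central protuberance only MRPL48 passed. The stalk that recruits translation factors was represented by 3 members. MRPL12, its mobile part and one of the 5 most abundant members, fell from 110, 103 and 101 to 93.8, 96.5 and 89.1 FPKM (-0.17 ± 0.050, limma adjusted p = 0.0231). MRPL10, to which it binds, was at 33.4 ± 1.01 and 34.1 ± 2.25 FPKM (0.03 ± 0.059, limma adjusted p = 0.746), and MRPL11 is given above.

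Other abundant or specialised members did not pass. MRPL37, the most abundant over both lines, was at 114 ± 2.34 and 112 ± 2.35 FPKM (limma adjusted p = 0.618), MRPL3 at 102 ± 1.52 and 96.3 ± 2.20 FPKM (0.109), and MRPL4 at 96.0 ± 4.24 and 93.9 ± 5.30 FPKM (0.664). The 3 MRPS18 paralogs, which descend from one bacterial protein, were at 32.2 and 31.5 FPKM (MRPS18A), 44.2 and 41.6 FPKM (MRPS18B) and 14.0 and 13.6 FPKM (MRPS18C). Their limma adjusted p-values were 0.725, 0.152 and 0.798. In the ancestry groups above, MRPS18C was counted with a bacterial counterpart and MRPS18B as mitochondrion-specific. MRPS12, a protein of the decoding site, was at 44.4 and 39.8 FPKM (0.144). MRPL58, a peptidyl-tRNA hydrolase built into the large subunit, was at 27.1 ± 1.57 and 26.1 ± 1.63 FPKM (0.531). MRPS36, now regarded as a subunit of the 2-oxoglutarate dehydrogenase complex, was at 12.1 ± 0.897 and 11.1 ± 1.66 FPKM (0.402).

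In FPKM as deposited, summed levels separated the lines for the small subunit and not for the large. All 78 members together came to 3157, 3120 and 3029 FPKM in LoVo and 2983, 2983 and 2866 FPKM in LoVo-HM. Small-subunit sums were 1194, 1200 and 1167 FPKM in LoVo and 1090, 1099 and 1054 FPKM in LoVo-HM, with no overlap. Large-subunit sums were 1963, 1920 and 1862 FPKM in LoVo and 1894, 1884 and 1811 FPKM in LoVo-HM, and these overlapped. The ratio of large to small was therefore 1.61 ± 0.026 in LoVo and 1.72 ± 0.012 in LoVo-HM (SD, n = 3), and its groups did not overlap. Without MRPS35 the ratio was 1.84, 1.79 and 1.80 in LoVo and 1.87, 1.83 and 1.86 in LoVo-HM, and the groups overlapped. With MRPS30 and MRPS18A counted in the large subunit and MRPS36 left out, the ratio was 1.88 ± 0.034 and 1.97 ± 0.002. These sums are descriptions of mRNA and carry no test. As a share of each library the members took 0.711 ± 0.012% in LoVo and 0.690 ± 0.016% in LoVo-HM. Of the FPKM outside mitochondrially encoded genes they took 0.904 and 0.843%. By library this second share ran from 0.893 to 0.911% in LoVo and from 0.826 to 0.852% in LoVo-HM. Divided by the FPKM outside mitochondrially encoded genes, the large-subunit sums of LoVo-HM also lay below those of LoVo, without overlap. The contrast in overlap between the subunits therefore does not hold on that scale.

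**Figure D4:**
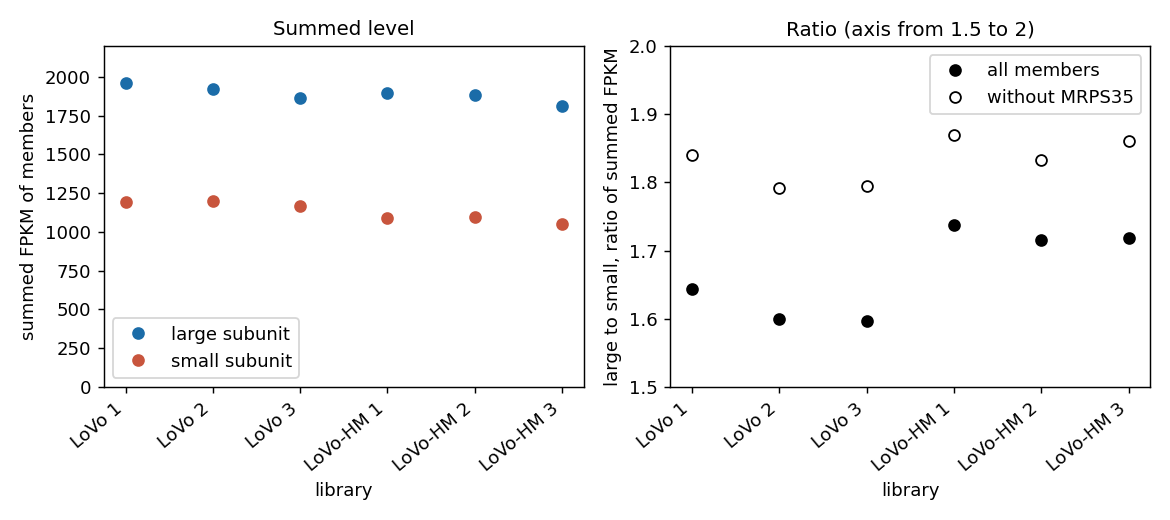
Summed FPKM of the large-subunit and small-subunit members in each library and the ratio of the sums. The small-subunit sums of LoVo-HM (1054 to 1099 FPKM) lie below those of LoVo (1167 to 1200 FPKM), whereas the large-subunit sums overlap.

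Many members share sequence or a start region with other genes. Exons of 28 members, 11 of them among the 24 that passed, overlap a tested gene in GENCODE 29, for 20 members on the other strand. The strand setting of the counting is not given, so reads of such pairs may not have been separated. MRPL34 overlaps ABHD8, which rose (0.38), MRPL19 overlaps GCFC2, which fell (-0.49), and MRPL51 overlaps NCAPD2, which rose (0.37). MRPL49 overlaps the far more abundant FAU, at 241 FPKM in LoVo and 269 in LoVo-HM (0.16, not passed). MRPL32 overlaps PSMA2, at 75.5 and 78.9 FPKM (0.06, not passed). MRPL33 overlaps BABAM2 on the same strand, at 18.6 and 17.0 FPKM (-0.12, not passed). GENCODE 29 also names 75 pseudogenes for 34 members, 13 of which passed the test. Levels of these members depend on how shared reads were assigned.

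Start sites of 27 members lie within 1 kb of the start of a tested gene on the other strand, in 26 pairs. The differences had the same sign in 13 of these pairs. Both genes passed in 2 pairs, MRPL51 with NCAPD2 (0.26 and 0.37) and MRPL57 with SKA3 (-0.16 and 0.43), 1 gene in 9 pairs and neither in 15. MRPS11 and MRPL46 form a pair in which both are members and neither passed. On chromosome 2, 5 of 8 members fell and 1 rose, where 23.5% of all tested rows were lower and 20.3% higher. On chromosome 6, 0 of 6 members passed, where 48.9% of all tested rows did. The chromosomes were singled out after their values were seen.

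Within LoVo-HM, replicates 2 and 3 differed along GC content. The deviation of each member from its group mean, set against the GC content of its transcripts, correlated with r = 0.48 in LoVo-HM replicate 2 and -0.56 in LoVo-HM replicate 3 (Spearman's rho 0.55 and -0.57). In the other 4 libraries r lay between -0.14 and 0.20. These are descriptions across 78 genes that share libraries, and deviations within a group sum to 0. The difference between the lines was only weakly related to GC content (r = 0.11), to transcript length (-0.26) and to mean level (-0.09). Whether the GC relation had a part in single calls was not tested.

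**Figure D5:**
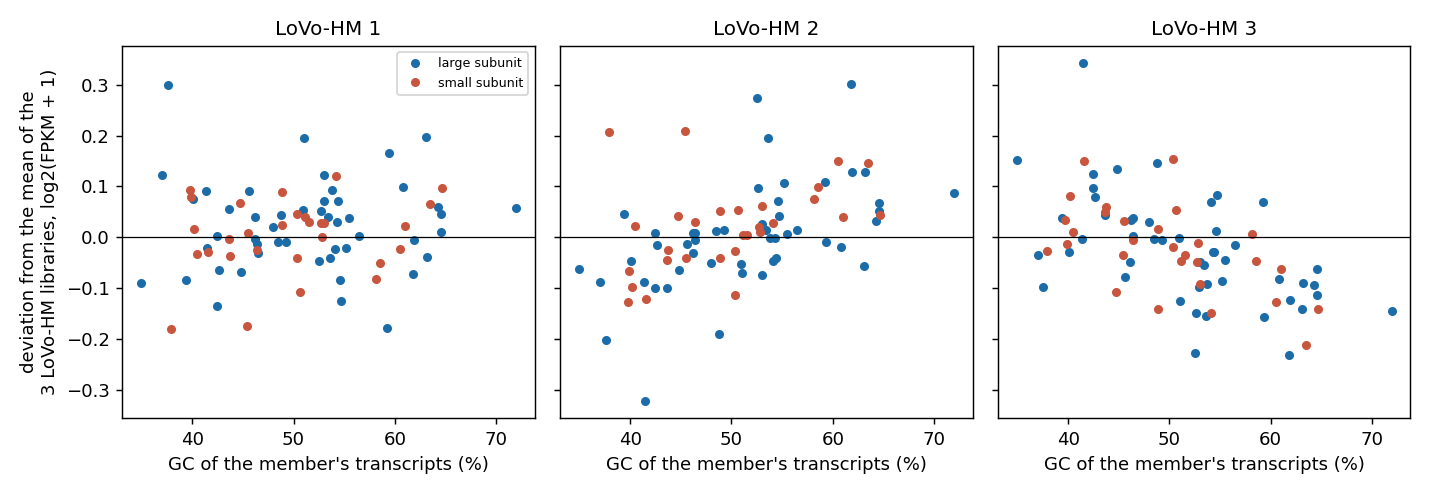
Deviation of each member from its LoVo-HM group mean (y axis, log2 units) against the GC content of its transcripts (x axis, %) in the LoVo-HM libraries, 78 points per library. Points slope up in replicate 2 (r = 0.48) and down in replicate 3 (r = -0.56).

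Partners of the mitochondrial ribosome were read from lists chosen by function, again beside 21.8% of all tested rows higher and 23.1% lower. Of 5 ribosomal proteins under other symbols, CHCHD1 fell (-0.24 ± 0.075, limma adjusted p = 0.0300). Its call was lost without LoVo replicate 1, LoVo replicate 2, LoVo-HM replicate 2 or LoVo-HM replicate 3 (up to 0.0964). With every library kept, the call of CHCHD1 was lost with no filter (limma adjusted p = 0.0605) and without a variance trend (0.0566). DAP3, the GTP-binding protein of the small subunit, lay at the threshold (-0.12 ± 0.043, limma adjusted p = 0.0501), at 55.5 and 51.0 FPKM. It passed under 5 alternatives (0.0252 to 0.0498): pseudocounts of 0.1 and 0.5, no filter, a filter at 2 FPKM, and mitochondrially encoded rows left out. Of 16 translation factors 3 rose (18.8%) and 7 fell (43.8%). Without LoVo replicate 1 or LoVo replicate 2 the count that rose was 0, and without LoVo-HM replicate 1 it was 1. With every library kept it was also 1 with no filter, without a variance trend, or with mitochondrially encoded rows left out. The factors that fell included GUF1, a back-translocating elongation factor, from 20.5 to 15.5 FPKM (-0.38), and OXA1L, the insertase that receives nascent chains from the exit tunnel, from 50.6 to 39.4 FPKM (-0.36). MTFMT, which formylates the initiator methionine (-0.37), and MTIF2, the initiation factor that brings it (-0.30), fell too.

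Among 17 mitochondrial aminoacyl-tRNA synthetases 2 rose (11.8%) and 4 fell (23.5%), and among 25 factors of ribosome assembly and rRNA modification 4 rose (16%) and 3 fell (12%). Of the synthetases only 1 rose without LoVo replicate 3, LoVo-HM replicate 1 or LoVo-HM replicate 2. The same count of 1 came with no filter, without a variance trend, or with mitochondrially encoded rows left out. PARS2 (-0.36) and MARS2 (-0.27) fell and WARS2 rose (0.35). RBFA, which matures the small subunit, rose from 19.9 to 25.9 FPKM (0.37), METTL17 (0.32) and NGRN (0.51) rose, and TFB1M, which dimethylates the small-subunit rRNA, fell from 9.31 to 6.43 FPKM (-0.47). Small-subunit protein mRNAs and small-subunit assembly factors thus held changes in both directions.

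The mRNAs that the mitochondrial ribosome translates and the regulators of mitochondrial genes were read in the same way. Of 13 mitochondrially encoded mRNAs 11 fell (84.6%) and 0 rose, with MT-ND6 going from 2864 to 1901 FPKM (-0.59), MT-ND4 changing by -0.51, MT-ND5 by -0.49 and MT-ND4L by -0.48. With quantile normalization 5 fell and 2 rose, the difference of MT-ND4L was -0.01 and did not pass, and those of MT-ND4 and MT-ND5 were -0.19 and -0.30. With no filter on low values 7 fell. These RNAs are cut from long transcripts and some overlap, so they are not independent. Of 10 genes of mitochondrial transcription and DNA maintenance only POLG, the DNA polymerase, passed (10% of the list, 16.7 to 21.4 FPKM, 0.34). Without LoVo replicate 2, LoVo-HM replicate 2 or LoVo-HM replicate 3 the list held 2 rises. Of 10 tested biogenesis regulators 3 rose (30%) and 3 fell (30%). ESRRA, a nuclear receptor that drives mitochondrial genes, fell from 73.4 to 48.6 FPKM (-0.59), and PPARGC1B, its coactivator, from 6.88 to 3.97 FPKM (-0.66). GABPB1, a subunit of the ETS-family factor GABP, rose from 5.71 to 8.66 FPKM (0.53).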

How the data were processed

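RNA from 3 LoVo and 3 LoVo-HM libraries was extracted with Trizol and an Illumina TruSeq RNA kit served for the libraries, per the labels' protocols. The authors deposited 1 table of FPKM values. Per the submitters' processing notes the build was GRCh38. Neither aligner, counter and annotation nor strand setting and depth is given in the sources used here. Low FPKM values showed no steps worth 1 read over 1554 genes, so depth was not recovered and no count model was used.

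Values were analysed as log2(FPKM + 1) with limma 3.58.1 in R 4.3.3 (variance trend, two-sided moderated tests, Benjamini-Hochberg adjustment over all 14487 rows with a mean of at least 0.5 FPKM). Members and lists were chosen with earlier results of these data known. Named members are the 10 largest rises and falls among those that passed, the 5 most abundant, the stalk proteins, the MRPS18 paralogs, MRPS12, MRPS30, MRPS36 and MRPL58. Each list gave up to 4 genes of smallest p. Members outside this rule, such as MRPL22 for its interval, were chosen once values were known, and the text says so for those that fell. Positions came from GENCODE 29, which matched all 78 members.

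On simulated data (11669 genes, 200 changed) the fit recovered 24% of changes of 0.25 log2 units, 74% at 0.5 and 96% at 1, with 8.12% false calls. The simulation held fewer genes and a far smaller share of changes than the real fit, in which 44.9% of 14487 rows passed. Adjusted p-values depend on that share, so these rates do not give the recovery in the real data. Alternatives were other pseudocounts, filters, scalings and variance fits, a replicate block, each library left out, subunits assigned by place, and, chosen after seeing the data, a fit without mitochondrially encoded rows.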

Additional observations from a re-analysis of the deposited data

How the results depend on the processing

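The number of members that passed was 24 and ran from 19 (no variance trend) to 26 (mitochondrially encoded rows left out, an alternative chosen after seeing the data) over the alternatives that kept all libraries, and from 17 to 23 with 1 library left out. Members that rose numbered 4 to 9 with a library left out, and members that fell 11 to 18. Large-subunit members that passed then numbered 9 to 12, with 3 to 7 rises and 5 to 9 falls, and small-subunit rises 1 to 4. Small-subunit rises were also 4 with libraries rescaled to the same total, 3 with median-ratio scaling or quantile normalization and 1 without a variance trend. Large-subunit rises were 4 with no filter. Counting subunits by place gave ratios of 1.88 in LoVo and 1.97 in LoVo-HM.

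Among named members, log2 differences turned sign only for 5 that did not pass. Rescaling to the same total gave 0.0062 for MRPL37, 0.00040 for MRPL4 and 0.0013 for MRPS18A. With 1 library left out the log2 difference ran from -0.063 to 0.015 for MRPL4, from -0.021 to 0.072 for MRPL10, from -0.079 to 0.011 for MRPS18A and from -0.14 to 0.036 for MRPS18C. MRPL11 passed with rescaling (limma adjusted p = 0.0437). The cause was not tested. Of 1050 values of named genes under alternatives, 972 kept their direction and side of the threshold.

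The replicate number as a block gave 25 members, 9 higher and 16 lower, and 6459 genes. Under the block MRPL11 (limma adjusted p = 0.00555) and MRPS12 (0.0369) passed and MRPL57 (0.0552) did not. Same-numbered libraries deviated together with r of -0.007, 0.022 and 0.026, so the numbers were not taken as a pairing. The limits are the 3 libraries per group, the unknown depth, and reads shared with overlapping genes and pseudogenes. Protein was not measured.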
